A study of Mus musculus with 4 samples.

Results

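The ISG15 conjugation pathway was examined in kidneys of pristane-injected mice through the transcripts of 5 genes out of the 54532 listed in each count file. The genes were chosen by their role, with earlier results of these data known, and found by Ensembl identifier, and all 5 were detected in every library and passed the low-count filter. Isg15 encodes the modifier itself, Uba7 its activating enzyme (E1), Ube2l6 its conjugating enzyme (E2), Herc6 the ligase (E3) and Usp18 the protease that takes ISG15 off its targets again.

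ISG15 is a ubiquitin-like protein that interferon-treated cells make in large amounts and attach to lysines of other proteins. Like ubiquitin, it is activated by an E1, handed to an E2 and placed on its target by an E3, and mice use Herc6 where human cells use HERC5. USP18 reverses the reaction and, apart from its protease activity, binds the IFNAR2 chain of the type I interferon receptor and dampens further signalling. Transcription of all these genes is induced by interferon through transcription factors that include STAT2 and IRF9 and bind an interferon-stimulated response element.

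RNA came from kidneys of C57BL/6J mice of 2 genotypes, wild-type (WT) and Zbp1-/- (Zbp1-KO), with 2 libraries each. Zbp1-KO animals carried a CRISPR-Cas9 deletion of Zbp1 exons 2 to 8. The protein senses nucleic acids in the left-handed Z form. All mice, WT included, had been given 500 µL pristane, a mineral-type oil that brings on lupus-like disease, intraperitoneally at 8 weeks of age, and kidneys were collected 8 months later, so that values describe the lupus-like kidney with and without Zbp1 and not the effect of pristane. Whether each library came from 1 mouse was not given in the labels, so the p-values measure only the spread between these libraries. The comparison asked whether loss of Zbp1 changed the transcripts of the ISG15 system.

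Total counts ranged from 9878776 to 12921925 per library, of which 4003417 to 5782924 did not fall on mitochondrially encoded genes. The mitochondrial share was lowest, at 49.5%, in Zbp1-KO 1 and lay between 57.4% and 61.5% in the other libraries, and across genes the log2 CPM of replicates correlated at 0.900 in Zbp1-KO and 0.938 in WT (Pearson r). Zbp1 itself had 94 and 125 counts in WT 1 and WT 2 and 18 and 0 counts in Zbp1-KO 1 and Zbp1-KO 2. Gene-level counts do not show on which exons those 18 fell. All 10 kidney markers were detected, with a summed level of 10191 to 12884 CPM (WT) and 11081 to 13279 CPM (Zbp1-KO), where CPM is counts scaled to a common library total, adjusted by the trimmed mean of M-values (TMM). Kap made up most of each sum, which therefore does not show that the other markers were level. By sign 6 of the 10 were higher and 4 lower in Zbp1-KO. Aqp2 measured 903 and 1061 CPM (WT) against 730 and 530 CPM (Zbp1-KO). Slc34a1 measured 923 and 1032 CPM (WT) against 529 and 995 CPM (Zbp1-KO). Whole kidney was sequenced, so fewer cells of a type and less RNA per cell cannot be told apart.

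ISG15 is attached through a C-terminal stretch of 6 residues that ends in a glycine pair, the same stretch by which ubiquitin is attached. It is shown as the coding sequence of mouse Isg15 from GENCODE M21, up to and including the stop codon, beside the end of the first ubiquitin repeat of Ubb. Capitals mark the 18 bases that encode this stretch.

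Isg15: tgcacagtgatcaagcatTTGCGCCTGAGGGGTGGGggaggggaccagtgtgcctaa

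Ubb: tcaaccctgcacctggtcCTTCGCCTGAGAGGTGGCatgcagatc

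The motif occupied residues 150 to 155 of the 161 that Isg15 encodes, leaving 6 residues after it that are removed to make the mature protein. In Ubb, whose open reading frame encodes 4 copies, the first stood at residues 71 to 76. Of the 18 motif bases, 14 were identical between Isg15 and Ubb.

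Because interferon-stimulated response elements lie close to the start of many interferon-induced genes, the sequence just before the RefSeq start sites of the members is also shown. RefSeq windows (GRCm38.p6) were at hand for 4 of the 5 genes, those other than Usp18. Each line holds the 130 bases before the start site, read along the gene's strand, and capitals mark matches, on either strand, to a tandem motif (GAAA, any 2 bases, GAAA) or to its shorter form AANNGAAA. The lines cover chr4:156200819-156200948 (minus strand) for Isg15, chr9:107975437-107975566 (plus) for Uba7, chr2:84798698-84798827 (plus) for Ube2l6 and chr6:57580862-57580991 (plus) for Herc6.

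Isg15: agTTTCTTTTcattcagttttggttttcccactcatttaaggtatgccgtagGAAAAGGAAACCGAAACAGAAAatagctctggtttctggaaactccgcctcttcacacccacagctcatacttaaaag

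Uba7: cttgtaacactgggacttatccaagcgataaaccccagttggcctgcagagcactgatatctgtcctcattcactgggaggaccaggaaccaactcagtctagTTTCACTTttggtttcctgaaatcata

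Ube2l6: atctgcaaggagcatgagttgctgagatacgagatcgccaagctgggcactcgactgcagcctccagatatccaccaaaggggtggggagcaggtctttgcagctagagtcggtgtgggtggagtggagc

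Herc6: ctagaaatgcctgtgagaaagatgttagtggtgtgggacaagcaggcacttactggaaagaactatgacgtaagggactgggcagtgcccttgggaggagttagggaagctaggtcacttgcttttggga

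Isg15 held 3 overlapping copies of the tandem motif, which together ran from -78 to -57 relative to the start site, and a further AANNGAAA at -128 to -121 on the opposite strand. Each copy of the tandem motif contains the shorter one. Uba7 held a single AANNGAAA on the opposite strand at -27 to -20 of the RefSeq start, which lies inside the gene as GENCODE M21 annotates it, from 107975505. Neither motif was found in the 250 bases before the start of Ube2l6 or Herc6, which says only that these letters are not in these windows. Across all 32851 windows of the same length in the table, 2.98% held the tandem motif and 21.3% held AANNGAAA. Counted by gene, with a match in any of its windows, 936 of 27025 held the tandem motif and 6466 held AANNGAAA. Of 25 other interferon-stimulated genes with a window, counted the same way, 8 held the tandem motif and 14 held AANNGAAA. A match is a description of the sequence and not evidence of binding in these kidneys.

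The 5 genes did not share a direction. Both libraries without Zbp1 had less Isg15 than either WT library, both had more Usp18, and the 3 conjugating enzymes overlapped between genotypes. Such separation was common: of all tested genes, 16.3% had both Zbp1-KO values below both WT values and 16.0% had both above. None of the 5 was called at an adjusted p under 0.05 in the edgeR quasi-likelihood test, in which 0.0134% of the 14908 genes tested were called, 2 in all. The same test did not call Zbp1 itself (log2 fold change -3.64 ± 0.89, SE, edgeR adjusted p = 0.999), so an adjusted p near 1 does not show that a member was unchanged.

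Isg15 (ENSMUSG00000035692) lies on chromosome 4 from 156199424 to 156200818 on the minus strand (GENCODE M21, GRCm38) and has 2 exons, 756 bases together. It had 196 and 160 counts in WT and 162 and 79 counts in Zbp1-KO. These were 15.8 CPM in WT 1, 13.7 CPM in WT 2, 11.9 CPM in Zbp1-KO 1 and 8.51 CPM in Zbp1-KO 2. Every WT value thus lay above every Zbp1-KO value, and the largest gap between neighbouring libraries was that between the Zbp1-KO replicates. The WT mean was 14.7 ± 1.47 CPM and the Zbp1-KO mean 10.2 ± 2.43 CPM (SD, n = 2 each). The fitted log2 fold change, Zbp1-KO over WT, was -0.52 ± 0.32 (SE), with a 95% interval from -1.21 to 0.18 and an edgeR adjusted p of 0.999. As a fold this interval reaches from 0.431 to 1.13, so the data allow both a clear decrease and no change of Isg15. An interval of this kind is not adjusted for the number of genes.

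Usp18 (ENSMUSG00000030107), on chromosome 6 from 121245906 to 121270917 (plus strand), had 68, 81, 235 and 75 counts in WT 1, WT 2, Zbp1-KO 1 and Zbp1-KO 2. The corresponding levels were 5.47 and 6.93 CPM (WT) against 17.3 and 8.08 CPM (Zbp1-KO). Both Zbp1-KO values lay above both WT values, but Zbp1-KO 2 was close to WT 2 and Zbp1-KO 1, the library with the 18 Zbp1 counts, stood far above the rest. The means were 6.20 ± 1.03 CPM and 12.7 ± 6.54 CPM (SD, n = 2 each). Usp18 had the largest log2 fold change of the 5 genes, 1.04 ± 0.42 (SE, 95% interval 0.13 to 1.96), and the smallest p, 0.0289 before adjustment and 0.999 after adjustment over all genes in edgeR. It was the only member under 0.05 before adjustment, a threshold that 1.91% of tested genes passed as higher and 1.97% as lower in Zbp1-KO. The Zbp1-KO replicates differed 2.14-fold in Usp18. Across the 10476 tested genes with a mean of at least 5 CPM the median ratio between these replicates was 1.24-fold, and 6.0% of genes differed at least as much as Usp18. Without Zbp1-KO 1 the log2 fold change was 0.38 (edgeR adjusted p = 0.891), and without Zbp1-KO 2 it was 1.47 (edgeR adjusted p = 0.120).

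**Figure D1:**
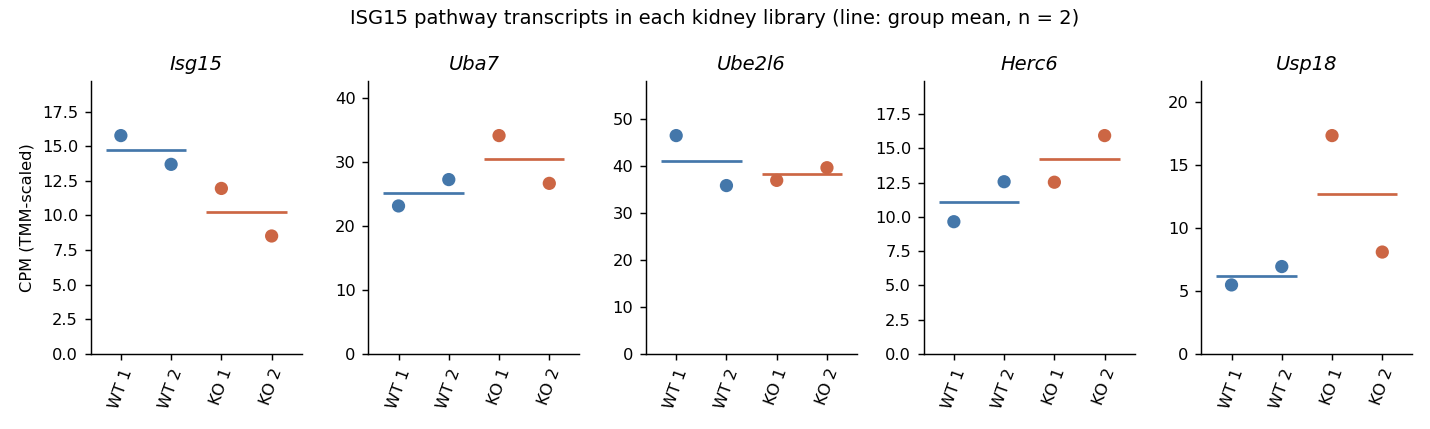
TMM-scaled CPM of the 5 genes in each library (blue, WT; orange, Zbp1-KO), with a line at each group mean (n = 2) and every axis starting at 0. Isg15 in Zbp1-KO (11.9 and 8.51 CPM) lies below both WT points, Usp18 is higher in both but mainly in Zbp1-KO 1 (17.3 CPM), and Uba7, Ube2l6 and Herc6 overlap.

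Among the enzymes that load and place ISG15, Uba7, the E1 (ENSMUSG00000032596, chromosome 9, 107975505 to 107984060, plus strand), measured 23.1 and 27.2 CPM (WT) against 34.1 and 26.6 CPM (Zbp1-KO). Zbp1-KO 2 lay between the WT values and Zbp1-KO 1 above them. The means were 25.1 ± 2.91 and 30.3 ± 5.27 CPM (SD, n = 2 each), and the log2 fold change of 0.27 ± 0.24 (SE) had a 95% interval from -0.24 to 0.79 (edgeR adjusted p = 0.999).

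Ube2l6, the E2 (ENSMUSG00000027078, chromosome 2, 84798828 to 84810335, plus strand), measured 46.5 and 35.8 CPM (WT) against 36.9 and 39.6 CPM (Zbp1-KO). Both Zbp1-KO values fell between the WT values. The means were 41.2 ± 7.53 and 38.3 ± 1.91 CPM (SD, n = 2 each). The log2 fold change of Ube2l6 was -0.11 ± 0.21 (SE, 95% interval -0.57 to 0.36, edgeR adjusted p = 0.999), and it was the only member whose sign depended on a library. Without WT 1 the value was 0.09. Among the 5 genes Ube2l6 also had the narrowest interval, which on the fold scale ran from 0.672 to 1.29. Like the others it is not adjusted for the number of genes, and it does not show that Ube2l6 was unchanged.

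Herc6, the E3 (ENSMUSG00000029798, chromosome 6, 57581000 to 57664632, plus strand), measured 9.65 and 12.6 CPM (WT) against 12.5 and 15.9 CPM (Zbp1-KO). WT 2 and Zbp1-KO 1 were practically equal, at 12.57 and 12.54 CPM, while WT 1 was the lowest and Zbp1-KO 2 the highest. The means were 11.1 ± 2.07 and 14.2 ± 2.41 CPM (SD, n = 2 each), with a log2 fold change of 0.35 ± 0.32 (SE, 95% interval -0.33 to 1.04, edgeR adjusted p = 0.999). Herc6 was thus highest in the library in which Isg15 was lowest.

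**Figure D2:**
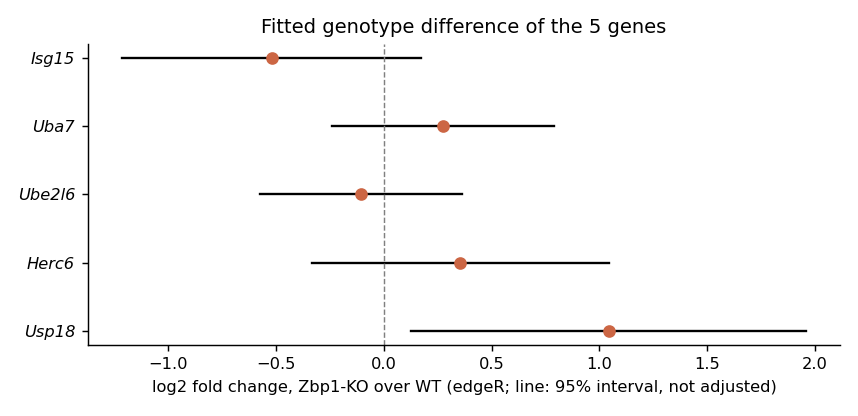
Fitted log2 fold change, Zbp1-KO over WT, of each gene (point) with its unadjusted 95% interval (line) from edgeR. The interval includes 0 for Isg15, Uba7, Ube2l6 and Herc6, and for Usp18 it runs from 0.13 to 1.96.

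Read against all genes, these counts were small. Of the 5 members, 1 (Usp18) had both Zbp1-KO values above both WT values and 1 (Isg15) had both below, where 16.0% and 16.3% of all tested genes did so. By sign alone 3 members were higher and 2 lower, and 49.4% of all tested genes were higher. The median log2 fold change of the members was 0.27, and that of all tested genes was -0.01.

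Annotated neighbours share exon sequence with Uba7 (Gm20661, 233 bases, same strand), Herc6 (Gm45193, 1269 bases, same strand) and Usp18 (Gm44148, 124 bases, opposite strand). All of them were listed at 0 counts in every library. Read pairs in the shared stretches may therefore have been left uncounted, and whether counting used the strand was not given in the sources used here. Isg15 and Ube2l6 had no overlapping gene.

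Levels of different genes were compared per kilobase of annotated exon. In WT, Ube2l6 (20.6 ± 3.77 CPM per kilobase) and Isg15 (19.5 ± 1.94) stood together at the top and differed by less than their spread (SD, n = 2 each). Uba7 followed at 3.76 ± 0.43, Usp18 at 2.22 ± 0.37 and Herc6 at 1.20 ± 0.22 CPM per kilobase. In Zbp1-KO the levels were 19.2 ± 0.96 for Ube2l6 and 13.5 ± 3.21 for Isg15, so that the modifier lay below its E2. Usp18 (4.55 ± 2.34 CPM per kilobase) and Uba7 (4.53 ± 0.79) could not be separated there, and Herc6 stayed last at 1.53 ± 0.26. These levels depend on which exons are counted. Per kilobase of the transcript with the longest coding sequence, a choice made after seeing the data, the WT means were 26.4 for Ube2l6, 19.5 for Isg15, 7.87 for Uba7, 3.50 for Usp18 and 2.33 for Herc6, so that Ube2l6 stood above Isg15. On that scale the Zbp1-KO means were 24.5 for Ube2l6, 13.5 for Isg15, 9.50 for Uba7, 7.17 for Usp18 and 2.99 for Herc6, with Uba7 above Usp18.

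Isg15 was also set against the enzymes within each library, which removes library scaling. The log2 CPM of Isg15 minus the mean log2 CPM of Uba7, Ube2l6, Herc6 and Usp18 was 0.03 in WT 1, -0.32 in WT 2, -0.93 in Zbp1-KO 1 and -1.16 in Zbp1-KO 2. All Zbp1-KO values lay below all WT values, and the gap between the groups exceeded the gap within either. The means were -0.15 ± 0.24 in WT and -1.04 ± 0.16 in Zbp1-KO (SD, n = 2 each), a difference of -0.90. With 2 libraries against 2, the exact two-sided permutation test gave p = 0.333, which is the smallest it can give, and no library decided the value: with each left out in turn it ran from -1.07 to -0.73.

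Against each enzyme singly the difference was -1.46 for Usp18, -0.89 for Herc6, -0.80 for Uba7 and -0.44 for Ube2l6. The separation was narrowest for Ube2l6, where WT 1 was at -1.55 and Zbp1-KO 1 at -1.62. Each of these 5 related comparisons had an exact permutation p of 0.333, and adjustment leaves that value as it is. They share the Isg15 values, which did not overlap between genotypes to begin with, and are not separate evidence.

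The pair of modifier and protease can be read directly from the counts. There were 2.88 and 1.98 Isg15 counts for each Usp18 count in WT 1 and WT 2, and 0.689 and 1.05 in Zbp1-KO 1 and Zbp1-KO 2. As a share of the counts of both genes, Isg15 took 74.2% in WT 1 (exact Clopper-Pearson 95% interval 68.5% to 79.4%) and 66.4% in WT 2 (60.0% to 72.3%). It took 40.8% in Zbp1-KO 1 (35.9% to 45.8%) and 51.3% in Zbp1-KO 2 (43.1% to 59.4%). The intervals of WT 2 and Zbp1-KO 2, the closest libraries of different genotype, did not overlap. These intervals cover counting error only, and molecular identifiers were not described. The mean share was 70.3% ± 5.55 in WT and 46.1% ± 7.42 in Zbp1-KO (SD, n = 2 each, exact permutation p = 0.333). Usp18 was singled out here after its values were seen. Isg15 was lower and Usp18 higher in both Zbp1-KO libraries, so their share had to separate by genotype. It restates those values and is not separate evidence.

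Isg15 also made up a smaller part of the whole pathway in Zbp1-KO. Of the counts of all 5 genes it took 15.7% and 14.2% in WT and 10.6% and 8.62% in Zbp1-KO (exact permutation p = 0.333). That share rests on the same Isg15 values and is not separate evidence either. The summed level of the 5 genes was 100 and 96.2 CPM (WT) against 113 and 98.8 CPM (Zbp1-KO).

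**Figure D3:**
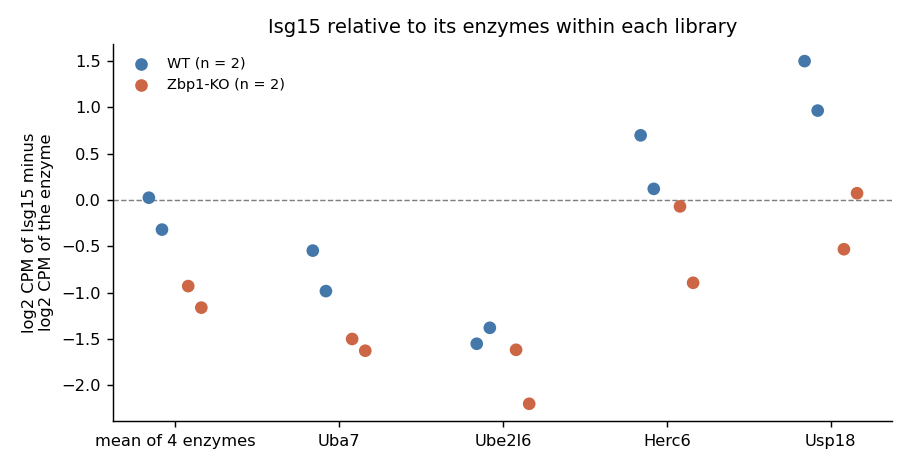
Log2 CPM of Isg15 minus that of its enzymes in each library (blue, WT; orange, Zbp1-KO; n = 2 each), for the mean of the 4 enzymes and for each enzyme. The mean difference is largest for Usp18 (-1.46) and smallest for Ube2l6 (-0.44), where WT 1 (-1.55) and Zbp1-KO 1 (-1.62) nearly touch.

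Other proteins of the ISG15 system were taken from a list of 10 genes, of which all were tested, 7 were higher and 3 lower, and 0 were called. Their median log2 fold change was 0.15, and 0 had an unadjusted p under 0.05 in edgeR. Itgal, a chain of the integrin LFA-1 that binds extracellular ISG15 and marks leukocytes, measured 2.73 and 3.59 CPM (WT) against 7.82 and 4.74 CPM (Zbp1-KO). Its log2 fold change was 0.99 ± 0.55 (SE, edgeR adjusted p = 0.999). Usp16, a deubiquitinase that can also act on ISG15, measured 14.1 and 15.7 CPM (WT) against 19.0 and 23.2 CPM (Zbp1-KO), without overlap. At the other end stood Stat2 (-0.24) and the ligase Arih1 (-0.15), with overlapping groups. Trim25, which can act as an ISG15 ligase, measured 36.9 and 38.7 CPM (WT) against 40.3 and 47.4 CPM (Zbp1-KO).

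The factors that switch the pathway on were mixed. Of 11 genes for the type I interferon receptor, its kinases and the transcription factors downstream, 4 were higher and 7 lower, 0 were called, and the median was -0.03. The highest was Irf1, an interferon-induced transcription factor, with 19.7 and 30.0 CPM (WT) against 51.9 and 35.7 CPM (Zbp1-KO) and a log2 fold change of 0.82 ± 0.27 (SE). It was the only one under an unadjusted p of 0.05 (0.00977, with an edgeR quasi-likelihood adjusted p of 0.999). Irf3 (-0.25) and Stat2 (-0.24) were lowest. Irf7, whose product amplifies interferon transcription, was nearly level at 66.7 and 69.1 CPM (WT) against 69.0 and 62.4 CPM (Zbp1-KO).

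Of 15 genes whose proteins are known to carry ISG15, 8 were higher and 7 lower, 0 were called or under an unadjusted p of 0.05, and the median was 0.02. Mx1, an antiviral GTPase, had the highest log2 fold change (0.86 ± 0.52, SE), followed by Ifih1, the RNA sensor MDA5 (0.65 ± 0.35, SE). Ifih1 measured 8.12 and 6.50 CPM (WT) against 11.7 and 11.3 CPM (Zbp1-KO), without overlap. Ube2n, an E2 for lysine-linked ubiquitin chains, was lowest at -0.39 ± 0.21 (SE) and had both Zbp1-KO values (28.5 and 27.5 CPM) below both WT values (34.4 and 38.8 CPM). Becn1, an autophagy protein, followed at -0.27.

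A list of 34 other interferon-stimulated genes, which shares genes such as Mx1, Ifih1, Stat2 and Irf7 with the lists above, was tested in full. Of these, 26 were higher and 8 lower in Zbp1-KO, 0 were called, and the median log2 fold change was 0.11. Without WT 1 the number higher was 20, and without Zbp1-KO 1 it was 21. Both Zbp1-KO values lay above both WT values for 13 genes and below them for 2, against 16.0% and 16.3% of all genes. At an unadjusted p under 0.05, 3 were higher (Mx2, Rsad2 and Oas2, named after their values were seen, apart from Mx2) and 1 was lower. Mx2, an interferon-induced GTPase, measured 2.57 and 0.941 CPM (WT) against 7.08 and 6.46 CPM (Zbp1-KO), a log2 fold change of 1.94 ± 0.64 (SE, edgeR adjusted p = 0.999). The lower gene was Oasl1, an oligoadenylate synthetase-like protein, with 6.51 and 5.64 CPM (WT) against 2.06 and 2.48 CPM (Zbp1-KO) and a log2 fold change of -1.42 ± 0.57 (SE, edgeR adjusted p = 0.999). Oas3 was next at -0.54 ± 1.06 (SE) from at most 1.71 CPM. Isg15, at -0.52, therefore stood with Oasl1 and Oas3 at the low end of the interferon-stimulated genes, and Usp18, at 1.04, between Mx1 and Mx2 at the high end.

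Libraries differed in their interferon-stimulated genes apart from genotype. The mean centred log2 CPM of the 34 genes was -0.16 in WT 1, -0.03 in WT 2, 0.18 in Zbp1-KO 1 and 0.01 in Zbp1-KO 2. For the 5 members it was -0.13, -0.05, 0.24 and -0.06 in the same libraries, so that Zbp1-KO 2 lay between the WT libraries. Their individual profiles departed from this mean, by a Euclidean distance over the 4 libraries of 0.15 for Uba7, 0.50 for Ube2l6, 0.53 for Herc6, 0.76 for Isg15 and 0.95 for Usp18. The size of the medians, though not their sign, varied with the library left out. That of the members was 0.08 without Zbp1-KO 1, 0.15 without WT 1, 0.17 without Zbp1-KO 2 and 0.39 without WT 2. That of the 34 other genes was 0.03 without WT 1 and 0.06 without Zbp1-KO 1, and 0.26 without WT 2 and 0.32 without Zbp1-KO 2.

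**Figure D4:**
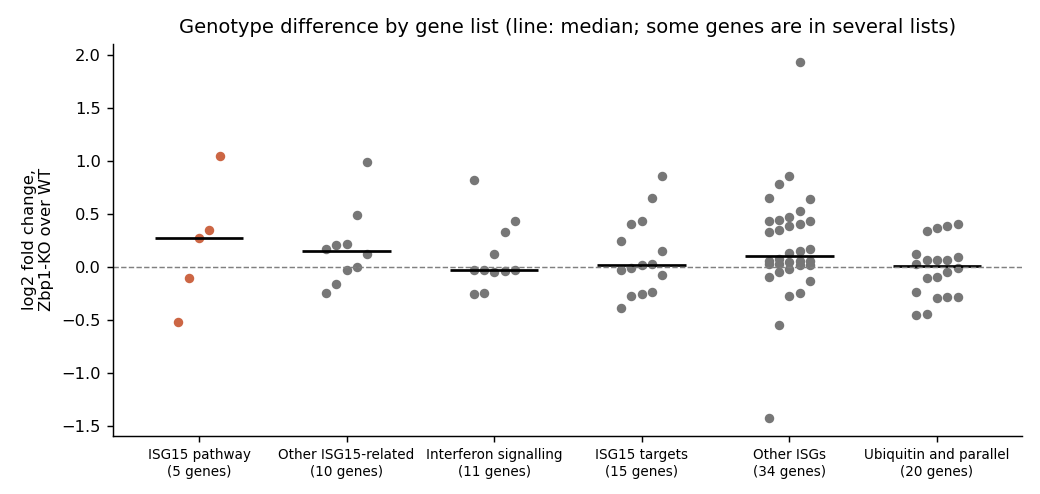
Log2 fold change, Zbp1-KO over WT, of every tested gene in 6 lists (points) with the list median (line). Members of the ISG15 pathway (orange) span -0.52 for Isg15 to 1.04 for Usp18, and the list medians run from -0.03 to 0.27.

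Ubiquitin and enzymes of parallel pathways were evenly split. Of 20 genes 10 were higher and 10 lower, and 0 were called or under an unadjusted p of 0.05 in edgeR. Ube2l3, the ubiquitin E2 most like Ube2l6, was the highest (0.41 ± 0.19, SE). It measured 44.8 and 53.5 CPM (WT) against 63.8 and 66.4 CPM (Zbp1-KO), whereas Ube2l6 overlapped. Usp7 was next at 0.39. Herc2, a large relative of Herc6, stood near the low end at -0.44.

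The genes whose pattern over the 4 libraries came closest to the members' mean profile were Zfp64, Immt, Dars, Tmem128 and Zbtb2, with distances of 0.03 to 0.04 among 10471 candidates of at least 5 CPM. All of them were highest in Zbp1-KO 1 and nearly level in the other libraries, as in Immt with 96.4, 100.4, 125.6 and 99.7 CPM. None was on the interferon lists.

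Markers of immune cells varied with the libraries as well. The 8 T cell markers summed to 14.8 and 9.41 CPM (WT) against 26.8 and 20.4 CPM (Zbp1-KO), and Cd3e was at most 1.40 CPM. By library this sum was highest in Zbp1-KO 1 and lowest in WT 2, and its relation to Usp18 was not tested. The 10 macrophage markers summed to 260 to 390 CPM (WT) and 372 to 376 CPM (Zbp1-KO). Csf1r and Lyz2 made up most of each sum, which therefore does not show that the other macrophage markers were level. By sign 8 of the 10 were higher and 2 lower in Zbp1-KO, and 49.4% of all tested genes were higher. Both Zbp1-KO values lay above both WT values for 4 and below them for 1, against 16.0% and 16.3% of all tested genes. The 4 markers of plasmacytoid dendritic cells, which release much type I interferon, summed to 2.41 to 3.08 CPM (WT) and 0.590 to 3.99 CPM (Zbp1-KO), with Ccr9 at 0 in 3 libraries. The 6 neutrophil markers summed to 5.13 to 25.1 CPM (WT) and 9.0 to 12.8 CPM (Zbp1-KO), with Ly6g at 0 in every library, and the 7 B and plasma cell markers to 34.0 to 126 CPM (WT) and 49.4 to 62.3 CPM (Zbp1-KO). Jchain made up most of each B and plasma cell sum, which says little about the other markers of that list. Of the 4 that were tested, 2 were higher and 2 lower in Zbp1-KO. The 8 fat markers, with Lep at 0 in every library, summed to 83.6 to 114 CPM (WT) and 192 to 233 CPM (Zbp1-KO), and 1 of them, Cfd, the adipocyte protease adipsin, named after its values were seen, was among the 2 called genes. The 6 endothelial markers summed to 207 to 241 CPM (WT) and 205 to 235 CPM (Zbp1-KO). The part of these cells, and of the mitochondrial share, in the values of Isg15 and Usp18 was not tested.

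**Figure D5:**
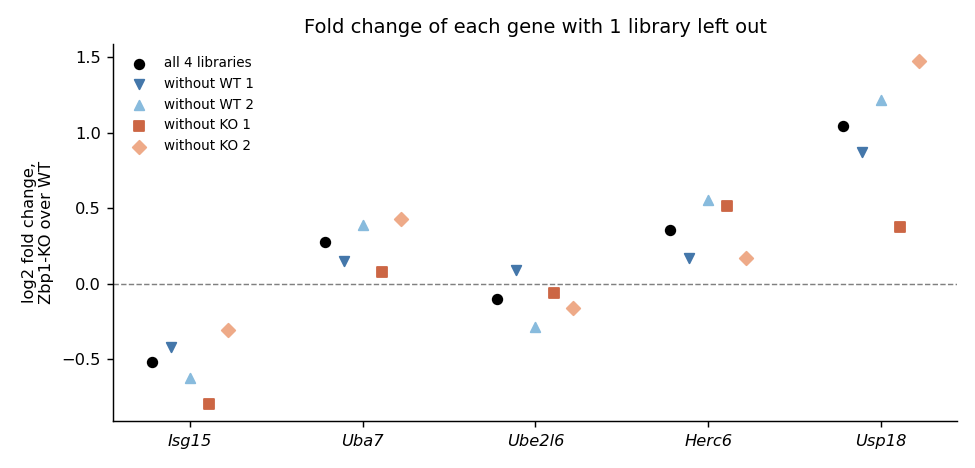
Log2 fold change of each gene with all 4 libraries (black) and with each library left out (other symbols, with edgeR assuming that the lone library varies like the rest). Isg15 stays below 0 (-0.80 to -0.31), Usp18 stays above 0 (0.38 to 1.47), and Ube2l6 changes sign without WT 1.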

How the data were processed

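Kidney RNA of 2 WT and 2 Zbp1-KO libraries was analysed, with groups and replicate numbers from the sample titles. The authors enriched polyadenylated RNA, trimmed paired reads with Trimmomatic, aligned them with HISAT2 to mm10 and counted uniquely mapped pairs with featureCounts. The deposited files give raw counts for each Ensembl ID. Program versions, annotation release and strand setting were not given in the sources used here. Unique counting can leave out pairs shared by overlapping genes.

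Of 54532 IDs, 54495 matched GENCODE M21 (GRCm38). Genes were filtered with filterByExpr (minimum count 10, minimum total 15) in edgeR 4.0.16 (R 4.3.3), scaled by TMM, and tested for genotype with the two-sided quasi-likelihood F test. P-values were adjusted by Benjamini-Hochberg over 14908 genes and called under 0.05. SE was obtained as the absolute log2 fold change over root F. Log2 CPM used a prior count of 2. At these depths 3 counts, taken as the floor for a gene with none, correspond to 0.221 to 0.323 CPM. The code was tested on simulated counts.

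Members and gene lists were chosen with earlier results of these data known. Genes named are Zbp1, the members, the 2 highest and 2 lowest of each list with at least 1 CPM, any called list gene, and the 5 nearest profiles; Trim25, Irf7, Rsad2 and Oas2 were added once their values were seen. Some genes that this rule names are not reported here. The alternatives tried were other scalings and filters, the replicate number as a block, edgeR's exact test, DESeq2 1.42.0, limma-voom (limma 3.58.1), a prior count of 0.5, leaving out mitochondrially encoded genes and leaving out each library.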

Additional observations from a re-analysis of the deposited data

How the results depend on the processing

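Isg15, Uba7, Herc6 and Usp18 kept their sign, and none of the 5 genes was called, under every alternative run. With all 4 libraries their log2 fold changes moved little: from -0.54 to -0.50 for Isg15, 0.26 to 0.29 for Uba7, -0.12 to -0.10 for Ube2l6, 0.34 to 0.36 for Herc6 and 0.96 to 1.04 for Usp18. With 1 library left out, where the lone library is assumed to vary like the others, they ran from -0.80 to -0.31, 0.08 to 0.43, -0.29 to 0.087, 0.17 to 0.55 and 0.38 to 1.47. The sign of Ube2l6 was reversed without WT 1 (0.087). The lowest adjusted p of any member was 0.120, for Usp18 in edgeR without Zbp1-KO 2. The median of the members ran from 0.076, without Zbp1-KO 1, to 0.39, without WT 2, and that of the other interferon-stimulated genes from 0.031, without WT 1, to 0.32, without Zbp1-KO 2. Isg15 relative to its enzymes ran from -1.07 to -0.73.

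Called genes numbered 2, and 41 with all genes of at least 1 count, where more genes of low count entered. They numbered 14 with the exact test, 9 with DESeq2, 7 with limma-voom and 4 without mitochondrially encoded genes, and the cause was not tested. With 1 library left out they ran from 0 (without WT 1) to 37 (without Zbp1-KO 2), with 8 without Zbp1-KO 1 and 20 without WT 2. A fit with a replicate block called 11 genes, with Isg15 at -0.54 and Usp18 at 0.96. Same-numbered deviations correlated at 0.00399 over 14908 genes, which gives no hint that the numbers pair libraries. Depth limits the lowest members most, since Usp18 rests on 68 to 235 counts per library.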
